A study of Mus musculus with 23 samples.

Results

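The genes described here are 37 type I interferon response genes, a fixed list of names chosen with earlier results of these data known. They were looked for among 19938 genes that a single-gene transcript cluster measured on 23 expression arrays of cells sorted from mouse mammary tumours. Of the 37 genes, 35 were measured, each by 1 cluster. Isg15 was covered only by a cluster that also names Gm9706, and no cluster named Ifi44, so no value is given for either. All levels below are log2 signals of a gene's own cluster, so a difference of 1 is a 2-fold change, and levels of different genes are not set against each other.

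Type I interferons (interferon alpha and beta) are secreted by cells that sense viral or misplaced nucleic acid, and act through the receptor chains Ifnar1 and Ifnar2 and the kinases Jak1 and Tyk2. The kinases activate factors such as Stat2, which acts with Irf9 in a complex (ISGF3) that binds the interferon-stimulated response element in the regulatory sequence of interferon-stimulated genes. In tumours the response is known for its part in antigen presentation and immune recognition, and interferons are also known to act on blood vessels.

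Py2T, a murine breast cancer cell line, had been implanted in the mammary fat pad of female FVB/N mice, and tumour cells and endothelial cells were separated by flow cytometric sorting. Nintedanib, a small-molecule inhibitor of VEGF, FGF and PDGF receptor kinases, was given at 50 mg per kg body weight for 7 days (short-term) or 21 days (long-term), and other tumour-bearing mice stayed untreated. Tumour cells were measured on 3 untreated, 4 short-term and 5 long-term arrays, and endothelial cells on 3 untreated, 3 short-term and 5 long-term arrays. All groups share the cell line and the strain, the labels name no further genetic change, and the untreated tumours were size-matched to the long-term ones and not to the short-term ones. The labels call the arrays of a group biological replicates, and neither the sort markers nor whether each array is 1 mouse is given in the sources used here.

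The sorted populations differed in their markers. All 20 endothelial markers were called higher in endothelial cells in each treatment state, with a mean between 9.77 and 10.35 on endothelial and between 4.09 and 4.32 on tumour cell arrays. Means of 9 epithelial markers lay between 6.64 and 7.17 on tumour cell arrays and between 5.52 and 7.69 on endothelial arrays, where long-term replicate 4 was the highest. Of these markers, Krt8 lay between 7.32 and 11.02 on endothelial arrays, and at 11.225 or higher on tumour cell arrays. Krt18 lay between 6.47 and 10.12 on endothelial arrays, and at 10.37 or higher on tumour cell arrays. How much tumour cell RNA the sorted endothelial cells held was not tested. The mean of 19 macrophage and monocyte markers lay between 4.11 and 4.95 on tumour cell arrays, and on endothelial arrays it was 7.49, 5.45 and 5.53 in the untreated, 4.43, 4.85 and 4.89 in the short-term and 4.83, 5.22, 7.51, 6.65 and 5.96 in the long-term group. Untreated replicate 1 and long-term replicates 3 and 4 lay above a cut of 6, chosen after the values were seen. The endothelial results of the members were also computed without these arrays, and those of the other gene lists were not. Long-term replicate 5, at 5.96, lay just under the cut and was kept. The number of arrays limits the precision, with a median residual SD of the members of 0.21 in tumour and 0.44 in endothelial cells, beside 0.16 and 0.26 over all genes.

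The promoters of these genes were searched for the binding sequences of the factors that interferons activate, to show what the members share in sequence. The RefSeq promoter table (GRCm38.p6, 250 bases before to 50 after each start) held 28 of the 37 members. The core of the interferon-stimulated response element, GAAANNGAAA on either strand, occurred in 11 of these 28 (39.3%) and in 3.99% of the 27025 genes in the table. The gamma-activated sequence TTCNNNGAA, which reads the same on both strands, occurred in 5 of 28 (17.9%) and in 9.55% of all genes. In 2 member windows both occurred, and 1 pair of matches overlapped. Shown first are the 250 bases before the start of Ifit1 (chr19:34640639-34640888, plus strand), Isg15 (chr4:156200819-156201068, minus strand), Irf7 (chr7:141266425-141266674, minus strand) and Psmb8 (chr17:34197945-34198194, plus strand), each 5′ to 3′ along its gene. They stand for an effector with 2 matches, one with 3 overlapping matches, a transcription factor with none and an antigen-processing gene with a gamma-activated sequence alone. Capitals mark the response element core in Ifit1 and Isg15 and the gamma-activated sequence in Psmb8.
Ifit1: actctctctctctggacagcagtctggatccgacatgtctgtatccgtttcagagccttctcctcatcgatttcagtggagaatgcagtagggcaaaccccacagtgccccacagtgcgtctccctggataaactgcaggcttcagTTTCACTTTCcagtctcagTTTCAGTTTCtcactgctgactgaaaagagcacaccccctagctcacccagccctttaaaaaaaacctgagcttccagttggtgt
Isg15: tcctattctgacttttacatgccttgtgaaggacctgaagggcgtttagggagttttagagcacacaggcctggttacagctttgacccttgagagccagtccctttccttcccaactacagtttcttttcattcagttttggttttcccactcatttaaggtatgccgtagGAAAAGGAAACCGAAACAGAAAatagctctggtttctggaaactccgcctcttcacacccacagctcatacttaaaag
Irf7: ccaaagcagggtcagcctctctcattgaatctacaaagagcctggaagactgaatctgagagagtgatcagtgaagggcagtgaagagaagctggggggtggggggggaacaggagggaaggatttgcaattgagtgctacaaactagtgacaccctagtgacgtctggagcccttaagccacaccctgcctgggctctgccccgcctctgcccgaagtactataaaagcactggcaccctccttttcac
Psmb8: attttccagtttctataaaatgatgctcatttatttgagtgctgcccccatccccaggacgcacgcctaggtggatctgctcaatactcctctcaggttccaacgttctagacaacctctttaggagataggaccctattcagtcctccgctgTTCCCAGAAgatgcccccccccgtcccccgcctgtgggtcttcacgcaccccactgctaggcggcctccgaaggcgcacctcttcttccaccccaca

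Counted from the start, the matches begin at -104 and -85 in Ifit1 and at -78, -72 and -66 in Isg15. Of 17 response element matches in 11 members, 5 began after the start, and the median position was -78. The 5 sites that follow are 30 bases each around a match before the start, with cores in capitals (2 overlapping ones in Bst2), and they show how far the bases between the 2 half-sites vary.
Ifit3: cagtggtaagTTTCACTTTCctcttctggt
Oas3: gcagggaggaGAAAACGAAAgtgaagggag
Stat2: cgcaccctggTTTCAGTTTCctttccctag
Rsad2: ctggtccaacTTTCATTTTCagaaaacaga
Bst2: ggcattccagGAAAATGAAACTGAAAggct

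A match is a description of the letters in the window and was not tested as a binding site. The other members with the core were Ifih1, Ddx58, Eif2ak2 and Trim21. The genes that were called higher in endothelial than tumour cells did not hold the core more often by count: 2 of the 8 with a window that were called in all 3 treatment states, 3 of the 7 called in 1 or 2 states and 5 of the 11 that were measured and never called higher had it. By position, 15 members have at most 5 protein-coding genes between them and another member. Directly adjacent were Psmb9 and Tap1, Tap1 and Psmb8, Rsad2 and Cmpk2, Oasl2 and Oasl1, Oas2 and Oas3, Ifit2 and Ifit3, Parp14 and Dtx3l, and Dtx3l and Parp9. Psmb9 and Tap1 are read in opposite directions from starts so close that their promoter windows share 275 bases (chr17:34187306-34187580). Neighbouring members are therefore not independent observations.

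Endothelial cells differed from tumour cells in many members, mostly upward, in each treatment state. The immunoproteasome subunits Psmb8 and Psmb9, the peptide transporter Tap1, the radical SAM enzyme Rsad2 (viperin), the ubiquitin and ISG15 ligase Trim25, the transcription factor Stat2, Oasl2, Rtp4 and Samd9l were called higher in all 3 states. In untreated mice 13 of 35 members were called higher, against 8.18% of all genes, and 0 were called lower, against 10.2%. In short-term mice 16 were called higher (background 23%) and 2 lower (background 17%), the sensors Zbp1 and Trim21. In long-term mice 13 were called higher (background 15.7%) and 2 lower (background 16.3%), the kinase Eif2ak2 and Parp12. Calls rest on limma with an adjusted p under 0.05 over all 19938 genes.

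The median difference of the 35 members was 0.56 log2 units in untreated, 0.48 in short-term and 0.24 in long-term mice, beside 0.03, 0.11 and 0.06 over all genes. Arrays of the 2 cell types did not overlap, with endothelial cells higher, for 15, 17 and 10 members (background 17.7%, 26.6% and 11.6%), and with endothelial cells lower for 2, 2 and 2 members (background 18%, 17.7% and 12%). Over all 23 arrays at once, every endothelial array lay above every tumour cell array for 8 of 35 members, Irf9, Stat2, Trim25, Rsad2, Psmb8, Psmb9, Tap1 and Rtp4, against 5.18% of all genes. The reverse held for 0 members, against 5% of all genes. Signs held across states for 24 members that were higher and 4 that were lower in all 3 states, called or not. The 4 were Eif2ak2, Parp12, Trim21 and Zbp1.

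All values are relative to the other genes of an array, and the short-term median of all genes, 0.11, became 0.00 after median centring or a renewed quantile normalization. Of all called genes 44.6%, 57.6% and 49% were higher in endothelial cells in the untreated, short-term and long-term state, and 34.1%, 37.5% and 33.7% after median centring. Among the members the calls then became 12 higher and 0 lower, 13 higher and 2 lower, and 10 higher and 3 lower. Renewed quantile normalization left 13 and 0, 14 and 2, and 13 and 1. A lower signal in sorted cells cannot be told apart as fewer expressing cells or as less RNA per cell.

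**Figure D1:**
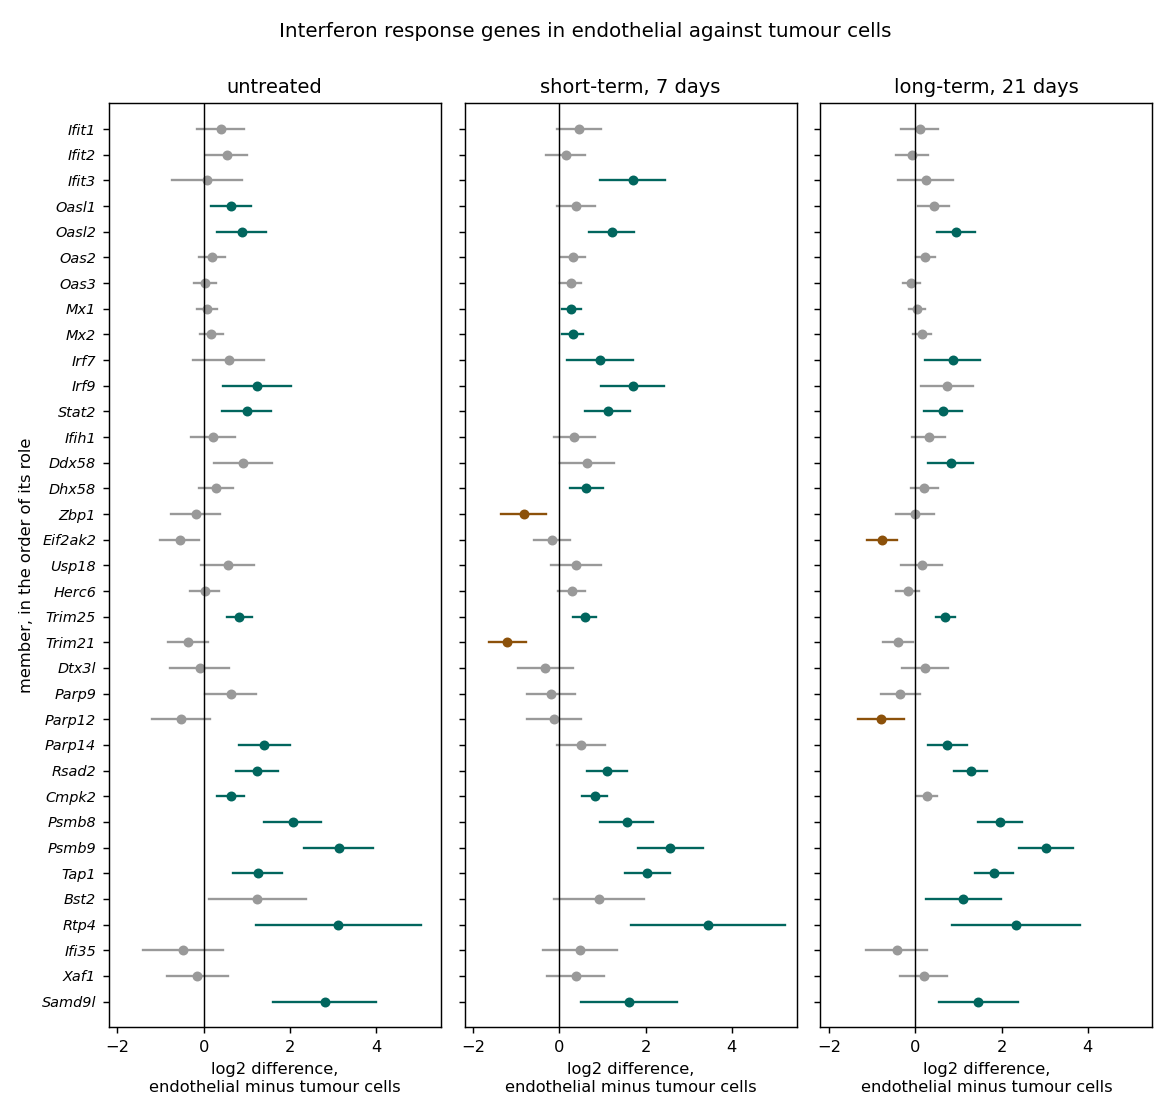
Log2 difference of each measured member between endothelial and tumour cells (horizontal axis, points with 95% confidence intervals from limma), in untreated, short-term and long-term mice. Green marks members called higher (13, 16 and 13), brown marks members called lower (0, 2 and 2) and grey those not called. Psmb9 and Rtp4 have the largest differences.

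The 3 antigen-processing members were higher on every endothelial array than on any tumour cell array. Psmb8 and Psmb9 replace standard catalytic subunits of the proteasome, and Tap1 is one chain of the transporter that carries the resulting peptides to MHC class I. Psmb9 signals were 5.73, 6.20 and 5.40 in untreated, 5.71, 5.64, 6.004 and 6.16 in short-term and 5.56, 5.80, 5.93, 6.37 and 6.07 in long-term tumour cells. They were 8.13, 9.19 and 9.41 in untreated, 9.03, 7.50 and 8.81 in short-term and 9.42, 8.47, 8.44, 9.01 and 9.52 in long-term endothelial cells. The lowest endothelial array, short-term replicate 2, lay above the highest tumour cell array. The difference was 3.13 ± 0.38 (SE), 2.57 ± 0.36 and 3.03 ± 0.30 log2 units in the untreated, short-term and long-term state (adjusted p = 5.35e-06, 2.02e-05 and 1.57e-07), or 8.76-fold, 5.93-fold and 8.15-fold.

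Psmb8 signals were 5.19, 5.85 and 5.37 in untreated, 5.59, 6.01, 6.16 and 5.90 in short-term and 5.97, 5.88, 5.56, 5.44 and 5.66 in long-term tumour cells. In endothelial cells they were 6.75, 8.39 and 7.48 untreated, 7.74, 7.24 and 7.45 short-term and 8.29, 7.36, 7.39, 7.97 and 7.33 long-term. The cell types did not overlap, and the untreated endothelial arrays spread widely, with replicate 2 highest. Psmb8 differed by 2.07 ± 0.32, 1.56 ± 0.30 and 1.97 ± 0.24 (adjusted p = 7.92e-05, 4.76e-04 and 3.93e-06). Tap1 signals were 4.45, 5.02 and 4.34 in untreated, 4.59, 4.28, 4.72 and 4.60 in short-term and 4.54, 4.55, 4.36, 4.23 and 4.07 in long-term tumour cells. They were 5.51, 6.40 and 5.66 in untreated, 6.65, 6.39 and 6.73 in short-term and 6.43, 5.58, 6.27, 5.80 and 6.83 in long-term endothelial cells. Tap1 was again higher on every endothelial array, and it differed by 1.25 ± 0.27, 2.04 ± 0.25 and 1.83 ± 0.21 (adjusted p = 0.00229, 5.17e-06 and 1.33e-06).

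The transcription factors Stat2 and Irf9 were also higher on every endothelial array, and Irf7 was not. Stat2 and Irf9 form ISGF3, and Irf7 amplifies interferon alpha production. Stat2 signals were 5.15, 4.86 and 4.86 in untreated, 5.05, 4.69, 4.67 and 4.70 in short-term and 4.80, 5.03, 5.06, 5.06 and 5.06 in long-term tumour cells. They were 6.40, 6.05 and 5.42 in untreated, 5.44, 6.58 and 5.67 in short-term and 6.20, 5.45, 5.78, 5.16 and 5.67 in long-term endothelial cells. The cell types did not overlap, although the highest tumour cell array and the lowest endothelial array nearly met. Stat2 differed by 1.00 ± 0.27, 1.12 ± 0.25 and 0.65 ± 0.21 (adjusted p = 0.0121, 0.00194 and 0.0229), and the untreated call ended when the 3 endothelial arrays high in macrophage markers were left out (0.78, adjusted p = 0.0638) and without endothelial untreated replicate 1 (range without single arrays 0.78 to 1.27, adjusted p up to 0.0718). The long-term call of Stat2 ended after median centring, with a replicate block and without tumour cell long-term replicate 1 or endothelial long-term replicate 1 (range without single arrays 0.51 to 0.77, adjusted p up to 0.0719). Irf9 ranged from 4.80 to 5.94 on tumour cell and from 5.95 to 7.95 on endothelial arrays, with differences of 1.23 ± 0.38 and 1.70 ± 0.35 that were called (adjusted p = 0.0258 and 0.00103) and 0.74 ± 0.29 that was not (adjusted p = 0.0588). The untreated call of Irf9 ended with a replicate block (adjusted p = 0.0973) and without tumour cell untreated replicate 1, tumour cell untreated replicate 2 or endothelial untreated replicate 2 (range without single arrays 0.85 to 1.57, adjusted p up to 0.168).

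Irf7 signals were 4.88, 4.55 and 5.0003 in untreated, 4.73, 4.58, 4.55 and 4.78 in short-term and 4.98, 4.84, 4.72, 4.51 and 4.77 in long-term tumour cells. They were 4.83, 5.999 and 5.35 in untreated, 6.68, 5.48 and 4.65 in short-term and 5.49, 5.89, 5.70, 4.71 and 6.34 in long-term endothelial cells. Endothelial arrays reached higher, but the cell types overlapped in every state. The differences were 0.58 ± 0.40, 0.94 ± 0.37 and 0.86 ± 0.31 (adjusted p = 0.35, 0.0486 and 0.0375), and both calls ended after median centring and after renewed quantile normalization, the short-term one also with array weights and with a replicate block. They also ended without any 1 of 18 of the 23 arrays (range without single arrays 0.40 to 1.42, adjusted p up to 0.371) in the short-term state and without any 1 of 8 of the 23 arrays (range without single arrays 0.68 to 1.09, adjusted p up to 0.102) in the long-term state. Its residual SD among endothelial arrays was 0.73, beside 0.17 among tumour cell arrays.

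Rsad2 and Cmpk2 are neighbouring genes, for viperin, which makes a chain-terminating nucleotide, and for a mitochondrial nucleotide kinase. Rsad2 signals were 4.07, 3.93 and 4.09 in untreated, 3.78, 4.05, 4.08 and 3.91 in short-term and 3.96, 3.74, 3.85, 3.98 and 3.83 in long-term tumour cells. They were 5.03, 5.46 and 5.32 in untreated, 4.58, 5.26 and 5.34 in short-term and 4.70, 4.55, 5.33, 5.70 and 5.49 in long-term endothelial cells. The tumour cell arrays formed a narrow band that no endothelial array reached. Rsad2 was higher by 1.24 ± 0.24, 1.10 ± 0.22 and 1.28 ± 0.18 (adjusted p = 7.48e-04, 7.72e-04 and 2.16e-05). Cmpk2, a dim cluster in percentile 19.6 of mean signal, was 3.10, 3.26 and 3.35 in untreated, 3.19, 3.24, 3.35 and 3.13 in short-term and 3.38, 3.31, 3.36, 3.25 and 3.13 in long-term tumour cells. It was 3.59, 4.09 and 3.93 in untreated, 3.95, 4.39 and 3.80 in short-term and 3.38, 3.79, 3.36, 3.65 and 3.61 in long-term endothelial cells. Cmpk2 overlapped in long-term mice alone, and its difference was 0.63 ± 0.15 and 0.82 ± 0.14 in untreated and short-term mice, both called (adjusted p = 0.00439 and 1.57e-04), and 0.27 ± 0.11 in long-term mice (adjusted p = 0.076).

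**Figure D2:**
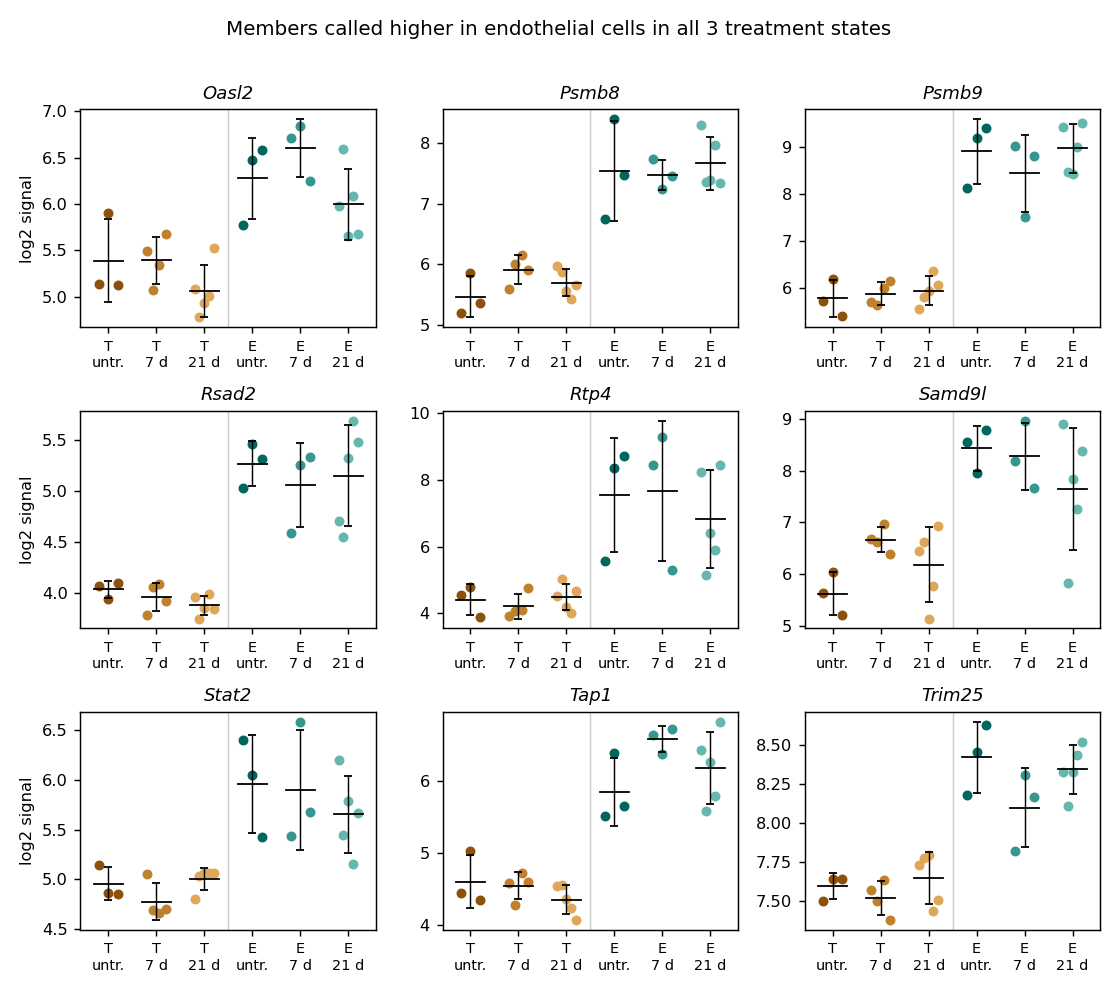
Log2 signal (vertical axes, one scale per gene) of the 9 members called higher in endothelial cells in all 3 states, by array, for tumour cells (T, brown) and endothelial cells (E, green), untreated (untr.) or treated for 7 or 21 days. Points are arrays and bars the group mean ± SD. Psmb9, Psmb8, Tap1, Rsad2, Stat2, Trim25 and Rtp4 do not overlap between the cell types, whereas Oasl2 and Samd9l do on some arrays.

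Among the 2′-5′-oligoadenylate synthetases and their relatives, the OAS enzymes make the messenger that activates RNase L, and Oasl1 and Oasl2 are OAS-like proteins. Oasl2 ranged from 4.78 to 5.90 on tumour cell and from 5.66 to 6.84 on endothelial arrays, and was higher by 0.89 ± 0.27, 1.21 ± 0.25 and 0.93 ± 0.21 (adjusted p = 0.0263, 0.00114 and 0.00201). The untreated call of Oasl2 ended with a replicate block (adjusted p = 0.0583) and without tumour cell untreated replicate 1, tumour cell untreated replicate 3, endothelial untreated replicate 2 or endothelial untreated replicate 3 (range without single arrays 0.74 to 1.14, adjusted p up to 0.115). Oasl1 was called in untreated mice alone, at 0.65 ± 0.22 (adjusted p = 0.0483), a call that ended under both other scalings, without the arrays high in macrophage markers (0.35, adjusted p = 0.257) and without any 1 of 15 of the 23 arrays (range without single arrays 0.35 to 0.90, adjusted p up to 0.283). Oas2 signals were 3.99, 3.94 and 3.87 in untreated, 3.80, 3.74, 3.999 and 3.89 in short-term and 3.88, 3.73, 3.66, 3.94 and 3.69 in long-term tumour cells. They were 3.93, 4.53 and 3.92 in untreated, 4.25, 4.27 and 3.995 in short-term and 4.23, 4.13, 3.94, 3.86 and 3.91 in long-term endothelial cells. The cell types overlapped and Oas2 was not called in any state, with differences of 0.19 ± 0.14, 0.31 ± 0.13 and 0.24 ± 0.11. Oas3 had 0.04 ± 0.12, 0.26 ± 0.11 and -0.10 ± 0.09 and was not called either.

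Mx1 and Mx2 encode dynamin-like antiviral GTPases, and the RefSeq table of the C57BL/6J genome lists both as transcribed pseudogenes. Mx2, in percentile 6.23 of mean signal over all genes, was 2.90, 2.87 and 2.95 in untreated, 3.03, 3.02, 2.72 and 3.20 in short-term and 2.89, 3.00, 2.99, 3.04 and 2.89 in long-term tumour cells. It was 3.02, 3.28 and 2.96 in untreated, 3.47, 3.19 and 3.23 in short-term and 3.18, 3.03, 2.93, 3.38 and 3.08 in long-term endothelial cells. The cell types were apart in untreated mice and overlapped under treatment. The short-term calls of Mx2 at 0.31 ± 0.12 and Mx1 at 0.27 ± 0.11 (adjusted p = 0.0427 and 0.0493) ended under both other scalings and with array weights, and that of Mx1 with a replicate block too. The call of Mx2 also ended without any 1 of 8 of the 23 arrays (range without single arrays 0.22 to 0.37, adjusted p up to 0.199), and that of Mx1 without any 1 of 17 of the 23 arrays (range without single arrays 0.16 to 0.37, adjusted p up to 0.276).

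The IFIT proteins bind foreign RNA at its 5′ end. Ifit1 signals were 3.99, 3.70 and 4.22 in untreated, 3.52, 3.73, 3.51 and 3.68 in short-term and 3.86, 3.80, 4.04, 3.63 and 3.66 in long-term tumour cells. They were 4.69, 3.66 and 4.76 in untreated, 3.66, 4.79 and 3.72 in short-term and 3.96, 3.84, 4.09, 3.78 and 3.81 in long-term endothelial cells. Untreated endothelial replicates 1 and 3 and short-term replicate 2 were high, at 4.69, 4.76 and 4.79, and the rest fell within the range of the tumour cells. Ifit1 and Ifit2 were not called in any state, with differences of 0.40 ± 0.26, 0.45 ± 0.24 and 0.10 ± 0.20 for Ifit1 and 0.53 ± 0.23, 0.14 ± 0.21 and -0.07 ± 0.18 for Ifit2. Ifit3 was called in short-term mice alone, at 1.70 ± 0.36 (adjusted p = 0.00135). Its paralogue Ifit3b lies between Ifit3 and Ifit1, and how far the probes separate Ifit3 from Ifit3b was not tested.

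The sensors split in direction. Ddx58 (RIG-I), Ifih1 (MDA5) and Dhx58 (LGP2) detect viral RNA, Zbp1 detects Z-form nucleic acid, and Eif2ak2 (PKR) is a kinase that stops translation when it binds double-stranded RNA. Ddx58 signals were 6.23, 7.22 and 5.997 in untreated, 6.82, 7.04, 6.61 and 6.58 in short-term and 6.31, 6.31, 6.01, 5.98 and 6.79 in long-term tumour cells. They were 7.00, 7.33 and 7.85 in untreated, 7.22, 7.77 and 7.22 in short-term and 6.72, 7.15, 7.45, 6.51 and 7.70 in long-term endothelial cells. Endothelial arrays lay higher, without overlap only in short-term mice, and the difference was 0.92 ± 0.32, 0.64 ± 0.30 and 0.83 ± 0.25 (adjusted p = 0.0544, 0.0951 and 0.016), called in long-term mice. Dhx58 was called in short-term mice at 0.62 ± 0.18 (adjusted p = 0.0108), which ended with array weights and with renewed quantile normalization. Ifih1 was not called, at 0.22 ± 0.24, 0.35 ± 0.23 and 0.31 ± 0.19.

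Eif2ak2 was the reverse. Its signals were 6.55, 7.03 and 6.42 in untreated, 6.41, 6.53, 6.53 and 6.42 in short-term and 6.39, 6.95, 6.52, 6.54 and 6.75 in long-term tumour cells. They were 5.84, 6.14 and 6.38 in untreated, 5.78, 6.66 and 6.46 in short-term and 6.08, 5.59, 5.93, 5.53 and 6.13 in long-term endothelial cells. Endothelial arrays lay lower, with no overlap in untreated and long-term mice, and the difference was -0.55 ± 0.22, -0.17 ± 0.20 and -0.78 ± 0.17, called in long-term mice (adjusted p = 0.0871, 0.507 and 0.00149). Zbp1 was called lower in short-term endothelial cells, with a difference of -0.83 ± 0.25 (adjusted p = 0.0144), a call that ended with array weights and without endothelial short-term replicate 1 (range without single arrays -0.96 to -0.72, adjusted p up to 0.0653). The short-term tumour cells had the highest mean Zbp1 signal of the 6 groups.

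Of the ISG15 and ubiquitin members, Trim25 activates RIG-I, Usp18 removes ISG15 and restrains the receptor, Herc6 is the mouse ligase of ISG15, and Trim21 is an intracellular antibody receptor. Trim25 signals were 7.50, 7.64 and 7.64 in untreated, 7.57, 7.49, 7.63 and 7.38 in short-term and 7.73, 7.77, 7.79, 7.43 and 7.50 in long-term tumour cells. They were 8.18, 8.46 and 8.63 in untreated, 7.82, 8.31 and 8.17 in short-term and 8.33, 8.11, 8.33, 8.44 and 8.52 in long-term endothelial cells. The difference was small in size but free of overlap, at 0.83 ± 0.14, 0.58 ± 0.13 and 0.70 ± 0.11 (adjusted p = 2.38e-04, 0.00207 and 5.58e-05). Trim21 signals were 6.18, 6.58 and 6.25 in untreated, 6.60, 6.05, 6.09 and 6.33 in short-term and 6.41, 6.65, 6.20, 6.14 and 6.24 in long-term tumour cells. They were 5.84, 5.97 and 6.12 in untreated, 4.99, 5.57 and 4.61 in short-term and 5.91, 6.17, 5.46, 5.88 and 6.22 in long-term endothelial cells. Endothelial arrays were lower without overlap in untreated and short-term mice, and Trim21 was called in short-term mice at -1.21 ± 0.20 (adjusted p = 1.60e-04), beside -0.36 ± 0.22 and -0.40 ± 0.17 in the other states.

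Usp18 signals were 3.65, 4.37 and 3.88 in untreated, 4.17, 3.98, 3.83 and 3.67 in short-term and 4.09, 3.99, 3.96, 3.78 and 3.98 in long-term tumour cells. They were 3.84, 5.39 and 4.36 in untreated, 4.07, 4.24 and 4.57 in short-term and 4.79, 4.10, 3.87, 4.003 and 3.77 in long-term endothelial cells. Untreated endothelial replicate 2 was the highest, and the cell types overlapped in each state. Usp18 was not called, at 0.56 ± 0.30, 0.38 ± 0.28 and 0.15 ± 0.23. Herc6 had 0.03 ± 0.16, 0.29 ± 0.15 and -0.18 ± 0.12, and Dtx3l, a ligase that works with Parp9, had -0.09 ± 0.33, -0.33 ± 0.31 and 0.22 ± 0.26, with 0 calls for both.

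The 3 poly(ADP-ribose) polymerase members differed in direction. Parp14, a mono-ADP-ribosyltransferase, had signals of 6.28, 6.35 and 5.76 in untreated, 6.65, 6.28, 6.55 and 6.62 in short-term and 6.45, 6.19, 6.03, 5.97 and 6.58 in long-term tumour cells. They were 7.05, 7.93 and 7.63 in untreated, 6.77, 7.67 and 6.62 in short-term and 6.50, 7.37, 6.86, 6.79 and 7.43 in long-term endothelial cells. The cell types were apart in untreated mice and overlapped under treatment, with differences of 1.41 ± 0.28, 0.49 ± 0.26 and 0.74 ± 0.22 (adjusted p = 0.0012, 0.139 and 0.0137). Parp12 was called lower in long-term endothelial cells, with a difference of -0.80 ± 0.25 (adjusted p = 0.0211), and the call ended with renewed quantile normalization and without tumour cell long-term replicate 5 (range without single arrays -0.94 to -0.74, adjusted p up to 0.0506). Parp9 had 0.62 ± 0.28, -0.19 ± 0.26 and -0.35 ± 0.22, with 0 calls.

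The remaining effectors included the widest spreads. Bst2 (tetherin) holds budding virus at the cell surface, Samd9l restrains translation, Xaf1 favours cell death, and Rtp4 restrains nucleic acid sensing. Bst2 signals were 6.26, 6.66 and 5.95 in untreated, 6.19, 6.48, 6.29 and 6.49 in short-term and 6.51, 6.18, 6.09, 5.95 and 6.23 in long-term tumour cells. They were 7.63, 7.03 and 7.96 in untreated, 8.36, 7.47 and 6.04 in short-term and 8.17, 6.70, 8.14, 7.79 and 5.71 in long-term endothelial cells. Most endothelial arrays were high, but short-term replicate 3 and long-term replicate 5 lay at 6.04 and 5.71, among or below the tumour cells. The difference was 1.25 ± 0.53, 0.93 ± 0.50 and 1.11 ± 0.41 (adjusted p = 0.118, 0.141 and 0.0458), and the long-term call ended after median centring, with a replicate block, when the arrays high in macrophage markers were left out (0.67, adjusted p = 0.269), and without any 1 of 16 of the 23 arrays (range without single arrays 0.90 to 1.51, adjusted p up to 0.125).

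Rtp4 signals were 4.56, 4.79 and 3.90 in untreated, 3.94, 4.07, 4.10 and 4.76 in short-term and 4.53, 5.02, 4.19, 4.02 and 4.68 in long-term tumour cells. They were 5.58, 8.36 and 8.70 in untreated, 8.43, 9.27 and 5.30 in short-term and 8.23, 5.16, 6.40, 5.88 and 8.44 in long-term endothelial cells. Each endothelial group held both arrays above 8 and arrays below 6. It was called in all 3 states at 3.13 ± 0.92, 3.45 ± 0.86 and 2.33 ± 0.71 (adjusted p = 0.0205, 0.00403 and 0.0168), and its residual SD of 1.70 in endothelial cells lay in the 99.95th percentile of all genes. The untreated call ended without tumour cell untreated replicate 1, tumour cell untreated replicate 3, endothelial untreated replicate 2 or endothelial untreated replicate 3 (range without single arrays 2.55 to 4.11, adjusted p up to 0.0946). The long-term call ended without endothelial long-term replicate 1 or endothelial long-term replicate 5 (range without single arrays 1.93 to 2.75, adjusted p up to 0.0508).

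Samd9l signals were 5.63, 6.04 and 5.20 in untreated, 6.68, 6.62, 6.98 and 6.39 in short-term and 6.45, 6.61, 5.14, 5.77 and 6.94 in long-term tumour cells. They were 8.56, 7.95 and 8.79 in untreated, 8.19, 8.97 and 7.67 in short-term and 8.90, 5.84, 7.83, 7.26 and 8.37 in long-term endothelial cells. Endothelial arrays were higher apart from long-term replicate 2, at 5.84, and the differences were 2.81 ± 0.57, 1.61 ± 0.53 and 1.46 ± 0.44 (adjusted p = 0.0013, 0.0224 and 0.0161). The long-term call ended without tumour cell long-term replicate 3 or endothelial long-term replicate 1 (range without single arrays 1.14 to 1.91, adjusted p up to 0.0528). The short-term call ended with array weights, with a replicate block (adjusted p up to 0.0731) and without tumour cell short-term replicate 4 or endothelial short-term replicate 2 (range without single arrays 1.26 to 1.91, adjusted p up to 0.0942). Ifi35 and Xaf1 were not called, at -0.48 ± 0.44, 0.48 ± 0.41 and -0.44 ± 0.34 for Ifi35 and -0.15 ± 0.34, 0.38 ± 0.32 and 0.20 ± 0.26 for Xaf1.

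Marker genes of other cells differed between the sorted populations too, and their part in these differences was not tested beyond the values given here. Of 19 macrophage and monocyte markers, 2 were called higher in endothelial cells in untreated, 0 in short-term and 8 in long-term mice. In the short-term state, where the macrophage marker means of 4.43 to 4.89 in endothelial cells lay beside 4.11 to 4.84 in tumour cells, 16 members were called higher. Without the 3 arrays high in these markers 13, 18 and 15 members were called, 13, 16 and 13 of them higher, and the median difference was 0.70, 0.48 and 0.31. The genes called were partly others. Stat2 and Oasl1 in untreated and Bst2 in long-term mice were no longer called. Among those newly called were Ddx58 in untreated mice (1.11, adjusted p = 0.0303) and Irf9 in long-term mice (0.95, adjusted p = 0.0276). Psmb9 then differed by 3.19 and Tap1 by 1.93 in long-term mice. The untreated endothelial group then held replicates 2 and 3 alone. The arrays left out, untreated replicate 1 and long-term replicates 3 and 4, also differed in other markers. Their epithelial marker means were 6.16, 6.66 and 7.69, and their endothelial marker means 9.77, 9.98 and 9.89. Which of these differences bears on the changed calls was not tested. Of 8 pericyte markers 5, 6 and 5 were called higher and 1, 1 and 1 lower. Of 10 fibroblast markers 1, 5 and 1 were called higher, of 14 lymphocyte markers 1, 5 and 3, of 10 dendritic cell markers 2, 4 and 3, and of 7 neutrophil markers 0, 1 and 1. Lower in endothelial cells were 7, 10 and 7 of 18 dissociation-response genes and 1, 12 and 17 of 19 mitosis genes. Of these marker lists, counts in both directions are given here for the pericyte markers alone. Lymphocyte marker means lay between 3.63 and 4.03 on endothelial and between 3.60 and 3.76 on tumour cell arrays. No marker is at 0 on this log2 scale, which has no true zero.

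**Figure D3:**
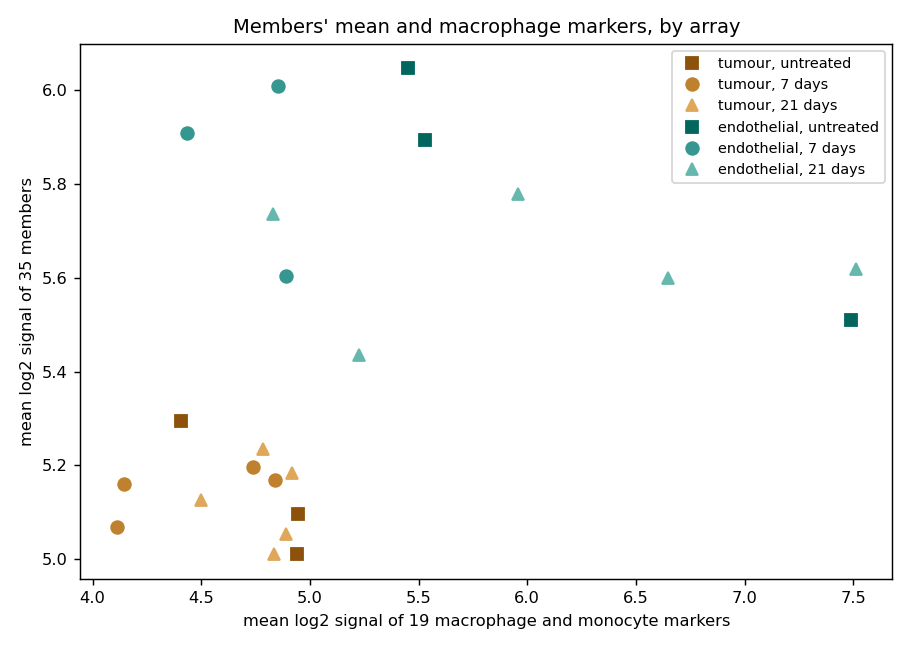
Mean log2 signal of the 35 members (vertical axis) against the mean of 19 macrophage and monocyte markers (horizontal axis), 1 point per array, by cell type and treatment. The members' mean is between 5.01 and 5.30 on tumour cell arrays and between 5.43 and 6.05 on endothelial arrays, and the 3 endothelial arrays highest in macrophage markers, at 5.51, 5.62 and 5.60, are not the highest for the members.

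The receptors of type I interferon also differed between the cell types. Of 27 measured genes of the signal chain 6 were called higher and 2 lower in untreated, 8 and 4 in short-term and 10 and 3 in long-term endothelial cells. Over all genes 8.18%, 23% and 15.7% were called higher and 10.2%, 17% and 16.3% lower, and the short-term counts lay near these shares. The same shares are the background of the marker lists above and the gene lists below. Ifnar2 was higher by 2.37 ± 0.20, 1.38 ± 0.19 and 2.43 ± 0.16 and Ifnar1 by 1.93 ± 0.23, 1.42 ± 0.21 and 1.41 ± 0.18, all called. The kinase gene Jak1 had 1.58 ± 0.25 in untreated and 1.58 ± 0.23 in short-term mice, both called, and Sting1, which signals from cytosolic DNA, was called in all 3 states at 3.97 ± 0.44, 3.19 ± 0.41 and 3.40 ± 0.34. Irf1 and Irf3 were not called, and neither was the interferon beta gene Ifnb1, at -0.17 ± 0.12, -0.01 ± 0.11 and -0.01 ± 0.09.

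Other interferon targets outside the set were also called mostly upward. Of 62 measured, 22, 23 and 27 were called higher and 2, 3 and 2 lower in endothelial cells of untreated, short-term and long-term mice. Slfn5 had 5.49 ± 0.28, 5.42 ± 0.27 and 4.997 ± 0.22, and Sp100, of nuclear bodies, 4.27 ± 0.53, 3.92 ± 0.50 and 3.62 ± 0.41. Of 17 genes of the interferon gamma response 8, 4 and 9 were called higher and 0 lower, among them the guanylate-binding protein gene Gbp4 at 1.85 ± 0.32 and 1.78 ± 0.30 in untreated and short-term mice and the MHC class II chaperone gene Cd74 at 3.02 ± 0.68 and 2.51 ± 0.53 in untreated and long-term mice. Of 12 antigen presentation genes 2, 3 and 4 were called higher and 0, 1 and 1 lower. The short-term counts called higher in the interferon gamma and antigen presentation lists lay near the 23% of all genes. B2m, the light chain of MHC class I, was higher by 0.86 ± 0.12, 1.10 ± 0.11 and 0.91 ± 0.09, and Psme2 was the gene called lower, at -1.11 ± 0.22 and -0.64 ± 0.18 in short-term and long-term mice. Members and these genes are partly targets of both interferon types, so the lists are not independent. The counts of these lists include the 3 endothelial arrays high in macrophage markers and were not computed without them.

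Nintedanib was followed by no called change of a member in either cell type. In tumour cells 0 of 35 members passed in short-term against untreated (0.507% of all genes were called), 0 in long-term against untreated (0.0903%) and 0 in long-term against short-term (1.22%). In endothelial cells 0 members and 0% of all genes were called in each of the 3 comparisons by limma. At an unadjusted p under 0.05 there were 5 higher and 3 lower members in short-term tumour cells (11% of all genes in either direction), 2 and 0 in long-term tumour cells (10.1%) and 3 and 1 in long-term against short-term tumour cells (11.9%). In endothelial cells there were 2 and 1 short-term (8.17%), 0 and 0 long-term (4.18%) and 1 and 3 in long-term against short-term (9.4%).

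The intervals say what size of change these arrays could show. The 95% confidence interval of the difference lay within a 2-fold change either way for 32, 33 and 33 of 35 members in the 3 tumour cell comparisons and for 19, 21 and 22 of 35 in the endothelial ones. The median half-width was 0.33, 0.32 and 0.29 log2 units in tumour and 0.73, 0.65 and 0.65 in endothelial cells. The members' median was -0.06, -0.04 and 0.06 in tumour cells, beside -0.01, -0.01 and 0.00 over all genes. In endothelial cells it was 0.01, -0.16 and -0.18, beside 0.06, 0.01 and -0.04 over all genes. Signs were negative for 27 of 35 members in long-term against untreated and for 25 of 35 in long-term against short-term endothelial cells, where 53.2% and 42.2% of all genes were positive. Without the 3 arrays high in macrophage markers the long-term against untreated median was -0.32, with 28 of 35 negative and 0 called. Of 18 genes of the dissociation response 3 were called higher in short-term and 1 in long-term against untreated tumour cells (medians 0.82 and 0.31), and 4 of 19 mitosis genes were called higher in long-term against short-term cells (median 0.77). In endothelial cells 0 of either list were called, with medians of 0.68 and 0.70 for the dissociation genes and -1.08 and -0.57 for the mitosis genes in short-term and long-term against untreated cells. Their part in the members' values was not tested.

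**Figure D4:**
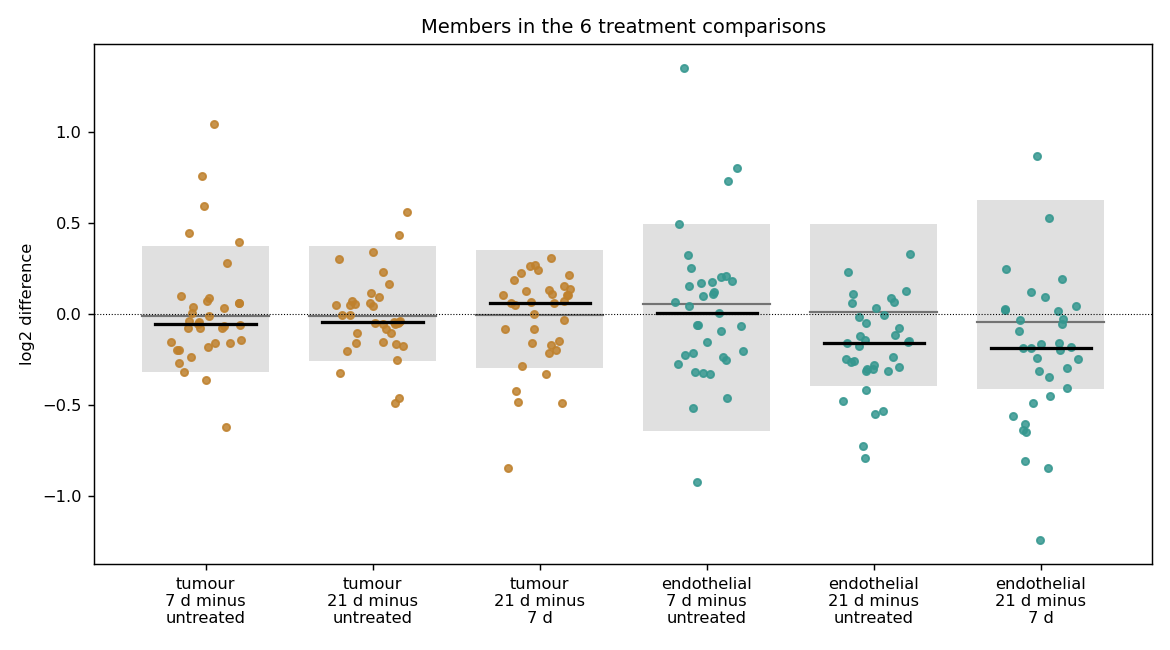
Log2 difference of the 35 measured members (points; vertical axis) in the 3 comparisons of treatment in tumour cells (brown) and in endothelial cells (green), with the members' median as a black line. Grey bars span the 5th to the 95th percentile of all genes and grey lines their median. The members' medians lie between -0.18 and 0.06, and no point was called.

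In tumour cells the smallest p belonged to Parp9, which works with Dtx3l in DNA repair and interferon signalling. Its signals were 6.15, 6.22 and 6.32 in untreated, 7.11, 6.76, 6.75 and 6.69 in short-term and 6.35, 6.72, 6.61, 6.77 and 6.89 in long-term tumour cells. Untreated arrays lay below all treated ones. The short-term difference was 0.60 ± 0.13 (adjusted p = 0.08) and the long-term one 0.44 ± 0.12 (adjusted p = 0.25), and neither passed. In endothelial cells Parp9 was 6.42, 7.42 and 6.73 untreated, 5.83, 6.72 and 7.35 short-term and 5.96, 6.25, 6.32, 6.48 and 6.61 long-term, with wide overlap and differences of -0.22 ± 0.37 and -0.53 ± 0.33. The difference of the long-term effect between the cell types was -0.97 ± 0.36 (adjusted p = 0.742).

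Samd9l was next in short-term tumour cells, at 1.05 ± 0.36 (adjusted p = 0.268), with all 4 arrays above the 3 untreated ones, and long-term arrays on both sides. Zbp1 signals were 5.19, 5.69 and 5.19 in untreated, 6.37, 5.76, 5.92 and 6.41 in short-term and 5.25, 5.17, 5.12, 4.66 and 6.16 in long-term tumour cells. They were 5.44, 5.16 and 4.92 in untreated, 5.06, 5.54 and 5.26 in short-term and 5.16, 5.09, 5.24, 5.28 and 5.53 in long-term endothelial cells. Short-term tumour cell arrays lay above the untreated ones, and all long-term arrays but replicate 5 lay below the short-term ones. Zbp1 differed by 0.76 ± 0.29 in short-term against untreated tumour cells (adjusted p = 0.335) and by -0.84 ± 0.26 in long-term against short-term (adjusted p = 0.167). Without long-term replicate 5 the latter became -1.06 and was called (adjusted p = 0.0183).

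Lower in short-term tumour cells at an unadjusted p under 0.05 were Ifit1, at -0.36 ± 0.13, Herc6, at -0.32 ± 0.13, and Xaf1, at -0.62 ± 0.26, with adjusted p of 0.28, 0.352 and 0.394. Ifit1 had -0.24 without untreated replicate 3. Herc6 signals were 4.84, 5.34 and 4.90 in untreated, 4.73, 4.67, 4.67 and 4.77 in short-term and 5.02, 4.90, 4.86, 4.85 and 5.24 in long-term tumour cells, so short-term arrays lay below both other groups. Herc6 was 5.22, 5.22 and 4.73 in untreated, 5.30, 4.84 and 4.84 in short-term and 4.78, 4.53, 4.88, 4.90 and 4.90 in long-term endothelial cells, with overlap. Xaf1 signals were 7.17, 8.42 and 6.96 in untreated, 6.94, 6.85, 6.90 and 6.90 in short-term and 7.05, 6.96, 6.84, 7.20 and 7.10 in long-term tumour cells, and untreated replicate 2 was far above every other tumour cell array. In long-term against untreated cells Xaf1 had -0.49 ± 0.25, and -0.04 without that array. It was 6.74, 7.47 and 7.89 in untreated, 7.73, 7.57 and 6.53 in short-term and 7.58, 7.26, 7.48, 7.00 and 6.80 in long-term endothelial cells, with overlap. Psmb8 and Parp14 were the other higher ones in short-term tumour cells, at 0.44 ± 0.18 and 0.40 ± 0.17, with adjusted p of 0.369 and 0.423.

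Ifit2 in tumour cells was 3.60, 3.34 and 3.79 untreated, 3.51, 3.87, 3.63 and 3.53 short-term and 3.85, 4.09, 3.77, 3.81 and 3.88 long-term. It was 3.77, 4.74 and 3.81 in untreated, 3.48, 4.30 and 3.55 in short-term and 3.73, 3.51, 3.79, 3.99 and 4.02 in long-term endothelial cells. Long-term tumour cell arrays were mostly higher but overlapped both other groups, by 0.30 ± 0.12 over untreated (adjusted p = 0.4) and 0.24 ± 0.11 over short-term cells (adjusted p = 0.392). Over untreated cells it was 0.19 without untreated replicate 2. Herc6 and Stat2 were the others with an unadjusted p under 0.05 and higher values in long-term against short-term cells, at 0.27 ± 0.11 and 0.23 ± 0.10, with adjusted p of 0.352 and 0.396.

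In short-term against untreated endothelial cells the 2 smallest p-values belonged to Trim21 and Ifit3, in opposite directions. The Trim21 signals given above were lowest in the short-term group, below all untreated arrays and below all but 1 of the long-term ones. It differed by -0.92 ± 0.25 in short-term against untreated cells (adjusted p = 0.533) and by 0.87 ± 0.23 in long-term against short-term cells (adjusted p = 0.389). With 1 fit over all 23 arrays, which shares the spread of both cell types, the latter was called (adjusted p = 0.0343). Ifit3 signals were 3.28, 3.18 and 3.75 in untreated, 3.08, 3.09, 3.35 and 3.00 in short-term and 3.26, 3.51, 3.30, 3.27 and 3.40 in long-term tumour cells. They were 3.30, 3.39 and 3.74 in untreated, 6.17, 3.89 and 4.43 in short-term and 3.999, 3.02, 3.44, 4.25 and 3.23 in long-term endothelial cells. Short-term endothelial arrays lay above the untreated ones, and replicate 1, at 6.17, was highest by far. Ifit3 differed by 1.35 ± 0.52 (adjusted p = 0.595), or 0.68 without that replicate, and by -1.24 ± 0.47 in long-term against short-term cells (adjusted p = 0.474), or -0.57 without it.

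Tap1 had 0.73 ± 0.32 in short-term against untreated endothelial cells (adjusted p = 0.609). Cmpk2 and Oasl2 had -0.49 ± 0.17 and -0.60 ± 0.26 in long-term against short-term cells (adjusted p = 0.461 and 0.518), and Cmpk2 had -0.32 without short-term replicate 2. In long-term against untreated cells the smallest p-values were those of Cmpk2, Parp14 and Parp9, at -0.31 ± 0.17, -0.55 ± 0.31 and -0.53 ± 0.33, all with an adjusted p of 1.00, and at -0.20, -0.35 and -0.25 without untreated replicate 2. The 3 antigen-processing members were positive there, Psmb8 at 0.13 ± 0.35, Psmb9 at 0.06 ± 0.42 and Tap1 at 0.33 ± 0.29, and the other 5 positive members were Ifit3, Mx1, Mx2, Irf7 and Zbp1.

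**Figure D5:**
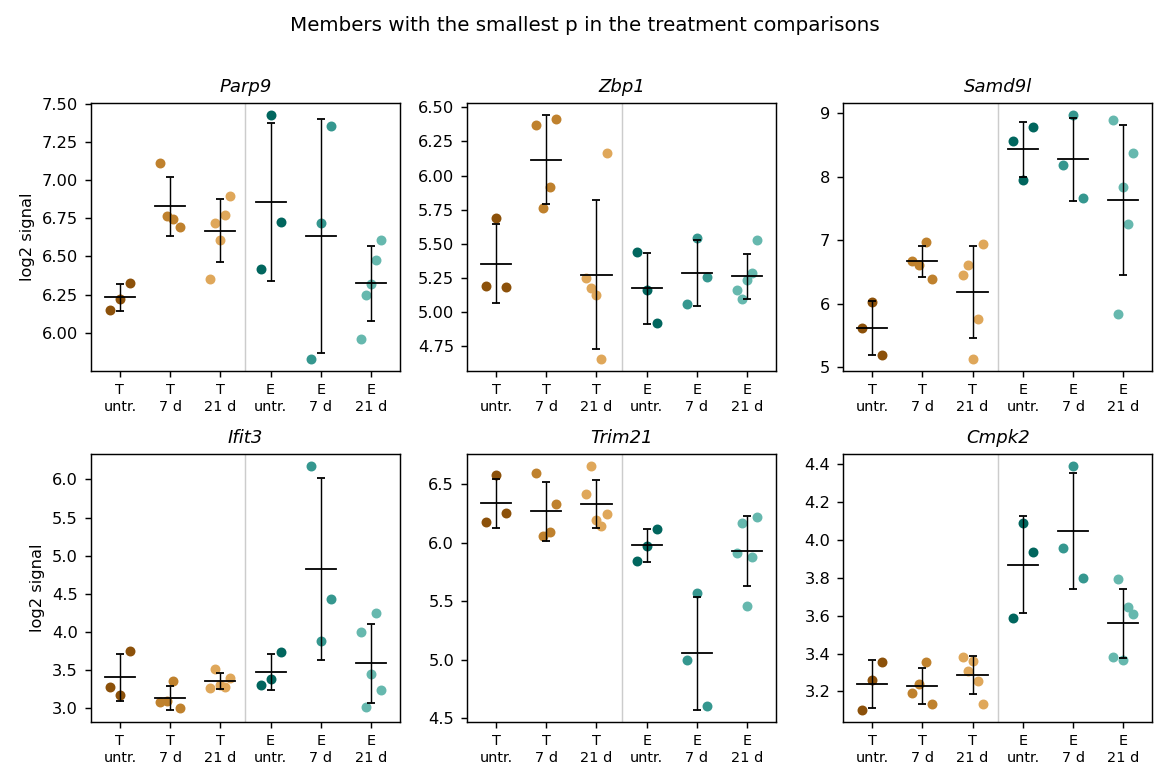
Log2 signal (vertical axes, one scale per gene) by array of 6 members with small p-values in the treatment comparisons, for tumour cells (T, brown) and endothelial cells (E, green), untreated (untr.) or treated for 7 or 21 days. Points are arrays and bars the group mean ± SD. None of the treatment differences passed an adjusted p under 0.05.

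Whether a treatment effect differed between the cell types was tested as an interaction over all 23 arrays. For the short-term effect 0 of 35 members were called (0.0953% of all genes), with 2 higher and 3 lower at an unadjusted p under 0.05 (11%), and for the long-term effect 0 (0%), with 0 and 2 (5.33%). Ifit3 had the smallest p, with a difference of 1.62 ± 0.53 between the short-term effects (adjusted p = 0.3), or 0.95 without endothelial short-term replicate 1, followed by Trim21 at -0.85 ± 0.30, Parp14 at -0.92 ± 0.39, Tap1 at 0.79 ± 0.37 and Parp9 at -0.82 ± 0.39. For the long-term effect the 2 were Parp9 and Ifit2, at -0.97 ± 0.36 and -0.61 ± 0.29, where Ifit2 had -0.29 without endothelial untreated replicate 2, and Cmpk2 came next at -0.36 ± 0.19.

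Among genes of the pathway outside the set, 1 was called under treatment. Of the 27 signal chain genes, 17 interferon gamma genes and 12 antigen presentation genes 0 were called in any of the 6 treatment comparisons. Of the 62 other targets 1 was called once, the helicase gene Helz2, which fell in long-term against short-term tumour cells (-0.55 ± 0.10, adjusted p = 0.0242). Ifnar2 had 0.73 ± 0.19 in short-term tumour cells (adjusted p = 0.135). Ifnb1, whose group means lay between 3.26 and 3.43, had -0.08 ± 0.10 in short-term and -0.16 ± 0.09 in long-term tumour cells and 0.07 ± 0.14 and -0.01 ± 0.12 in endothelial cells.

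Single pairs of members correlated weakly within groups. After group means were subtracted, the median correlation over 595 pairs of members was 0.06 in tumour cells (12 arrays) and 0.12 in endothelial cells (11 arrays), beside 0.01 and 0.00 between members and other genes. With the mean of the other members, Herc6, Parp14 and Oas3 correlated most in tumour cells, at 0.80, 0.79 and 0.77, and Rtp4, Ifit2 and Parp12 in endothelial cells, at 0.88, 0.66 and 0.63. Ifit1 was at -0.69 in tumour cells and Oasl1 at -0.74 in endothelial cells. The members' mean correlated with the mean of the other interferon targets at 0.73 in tumour and 0.85 in endothelial cells, and with that of the antigen presentation genes at 0.72 and 0.73. With marker means it correlated at -0.17 and -0.78 (lymphocyte), -0.18 and -0.44 (macrophage and monocyte), 0.37 and 0.55 (endothelial), 0.41 and 0.07 (dendritic), -0.06 and -0.35 (epithelial), -0.45 and -0.14 (mitosis) and 0.07 and -0.48 (dissociation) in tumour and endothelial cells. The genes outside the set with the pattern most like the members' mean were Tm6sf1, Cald1, Pkp1, Mia2, Ltbp2 and Cdc42ep2 in tumour cells (r between 0.93 and 0.95) and Smarca2, Wee1, Rtl8c, Stard8, Nelfa and Rest in endothelial cells (r between 0.91 and 0.92). With 12 and 11 arrays and the choice made among all genes, values of this size are a description, and the arrays share their scaling.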

How the data were processed

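RNA of sorted cells was amplified and hybridized to Affymetrix arrays, 1 array per sample. The deposited values are log2 signals made by the authors with RMA in oligo, per the submitters' processing notes, with the version not given in the sources used here. This method sets all arrays to 1 distribution, so a shift of most genes would not show. Of 35556 transcript clusters, 21789 named 1 gene, 1621 several and 12146 none. Symbols were updated to RefSeq (GRCm38.p6), and the cluster with the highest mean stood for a gene, which gave 19938 genes.

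limma 3.58.1 (R 4.3.3) was fitted to the 12 tumour cell and the 11 endothelial arrays apart for treatment, and to all 23 for comparisons between cell types and interactions. The fit to all 23 shares 1 spread per gene, although the members' median residual SD was 0.21 in tumour and 0.44 in endothelial cells. No fit gave each cell type its own spread in these comparisons, so their SEs and the calls near 0.05 rest on the shared one. Tests were two-sided, with Benjamini-Hochberg adjustment of p-values over all genes and calls under 0.05. They measure the spread between arrays of a group. The fits within each cell type were tested on simulated data for short-term against untreated cells alone. The fit to all 23 arrays was not tested in this way. Array values are given for up to 6 called members of a comparison with the smallest p (3 where none was called) and a fixed member per role; those of Rtp4 are given for its spread, chosen after its values were seen. The members and lists were chosen with earlier results of these data known. Alternatives were filters on dim genes, array weights, a mean-variance trend, other scalings, a replicate block, 1 fit over 23 arrays and leaving out arrays; leaving out the 3 arrays high in macrophage markers was chosen after seeing the data.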

Additional observations from a re-analysis of the deposited data

Results flagged for a closer look

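Of 108 tests of the 35 members and of their mean for 1 array standing apart within a group of 4 or 5, 4 passed (3.7%), and chance passes about 1 in 20. Stat2 was 5.05 on short-term tumour cell replicate 1, with the other arrays of the group at 4.70 or lower, and 4.80 on long-term tumour cell replicate 1, with the others at 5.03 or higher. Parp9 was 7.11 on short-term tumour cell replicate 1, and the nearest array was at 6.76. Parp12 was 6.64 on long-term endothelial replicate 3, and the nearest array was at 5.97. For 0 members was an interaction of treatment and cell type called.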

How the results depend on the processing

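No called difference of a member changed sign in the alternatives run. The count of members called kept within 1.5 times in 284 of 286 alternatives, which include the comparisons where 0 members were called. It became 1 in long-term against short-term endothelial cells with 1 fit over all 23 arrays (Trim21). With array weights 11 members were called higher and 1 lower between the short-term cell types, in place of 16 and 2. The untreated and long-term counts of higher members were then 15 and 15, in place of 13 and 13. Without genes under the 30th percentile 28 members were tested, and 13, 11 and 14 were called higher in the untreated, short-term and long-term state. Leaving out single arrays gave 0 to 1 called in long-term against short-term tumour cells (Zbp1), and 9 to 14, 14 to 18 and 11 to 18 between the cell types. The median difference between the cell types was 0.83 in untreated mice without genes under the 50th percentile, and 0.28 to 0.70 without single arrays. In long-term mice it was 0.54 and 0.70 without genes under the 30th and the 50th percentile, and the median interaction of the short-term effect was -0.24 under the 50th percentile filter. Deviations of same-numbered replicates correlated between -0.15 and 0.11. Such deviations from group means, across treatments or cell types, cannot decide whether same-numbered arrays share a mouse. With a replicate block 12, 15 and 13 members were called between the cell types. Over all genes, 1 fit over 23 arrays called 106, 34 and 262 genes in the 3 endothelial treatment comparisons in place of 0, and 30, 9 and 96 in the tumour cell ones in place of 101, 18 and 243. Array weights called 67 and 10 genes in short-term and long-term against untreated tumour cells, and the block 2 in the latter. A variance trend called 2 in long-term against untreated endothelial cells, and the 50th percentile filter 4677 in place of 7972 between the short-term cell types. For the interactions, array weights called 11 and the block 0 in place of 19 short-term, and array weights or leaving out the 3 arrays called 2 in place of 0 long-term.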
